A study of Homo sapiens and Mus musculus and synthetic construct with 31 samples.

Results

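The RNA-seq of untransfected mouse and human embryonic stem cells (ESCs) was compared gene by gene, for genes other than transcription factors (TFs). Genes were paired where human and mouse symbols were equal ignoring case and each symbol was unique in its species, leaving out mitochondrial genes, patch and haplotype rows, and 28 to 34 Mb of human chromosome 6. This gave 14233 pairs, of which 13267 were not TFs, and 10330 of those (10978 pairs with TFs) passed a minimum of 1 CPM (counts scaled to library size) in at least 3 of the 6 libraries. The libraries were 6 of the 31 samples of the series, 3 for each species. The hESCs were of the established line HUES64, kept feeder-free in mTeSR1. The mESCs came from mouse blastocysts and were kept feeder-free in 2i, a medium with inhibitors of MEK and GSK3. Neither group had been transfected, and the 3 libraries of each came from 3 consecutive passages. Each group was 1 line in 1 medium, so species, line and medium cannot be told apart, and p-values measure only the spread between libraries of a line.

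ESCs of both species self-renew and can form the tissues of the embryo, but in these media they stand at different stages. Mouse ESCs in 2i resemble the naive epiblast before implantation, with low DNA methylation and with ERK signalling blocked. Human ESCs in mTeSR1 depend on FGF and TGF-beta signals and resemble the primed epiblast after implantation.

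Levels are given as fragments per kilobase of exon and unit of library size (FPKM), computed from the counts, the deposited gene lengths and library sizes scaled between species. Fold changes are log2 of mESC over hESC with a standard error (SE), taken as the fitted change over the square root of its F statistic. For genes with few counts in a species this SE understates the uncertainty of the fold change. A gene was called at an adjusted p under 0.01 and a log2 fold change of at least 1 in size (edgeR's quasi-likelihood test, Benjamini-Hochberg over all pairs tested). The hESC libraries held 18684612 to 22018956 counted fragments and the mESC libraries 15107041 to 19050791, of which 86.4% to 86.8% and 83.1% to 83.5% fell in the pairs. Human mitochondrial genes had 0 counts in every human library. Of 13 paired core pluripotency genes, 12 had a mean of at least 1 FPKM in hESCs and 13 in mESCs, and POU5F1 was not paired. Their summed level was 2400 to 2700 FPKM in hESC and 1150 to 1360 in mESC libraries. Of the 13 genes, 3 were called higher in mESCs and 6 in hESCs.

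Gene expression differed between the mESCs and the hESCs across most of the transcriptome. Over all pairs tested, 27.9% were called higher in mESCs, 30.9% were called higher in hESCs, and 31.0% had a 95% interval of the fold change within 2-fold. Among the 10330 genes other than TFs, 2854 were higher in mESCs, 3198 were higher in hESCs and 3230 lay within 2-fold, with a median log2 fold change of -0.04. A gene list with shares near these percentages is not set apart from all pairs. Genes at or near 0 in a species passed the filter only through the libraries of the other species, so their direction was fixed by the filter. The 3 libraries of the higher species stood above all 3 of the other in 2848 and 3198 of the called genes. Levels in the 2 species had a Spearman correlation of 0.665 across these pairs, which are not independent replicates. In 83 genes higher in mESCs no hESC library held a count, and in 229 genes higher in hESCs no mESC library did. Fold changes for these are lower bounds against 3 counts over the group. All 174 called genes named in the text had passages that did not overlap between species, and the largest adjusted p among them was 0.00037. Such separation was a condition for naming the genes with the largest differences and held for nearly all called genes, so it adds no support.

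**Figure D1:**
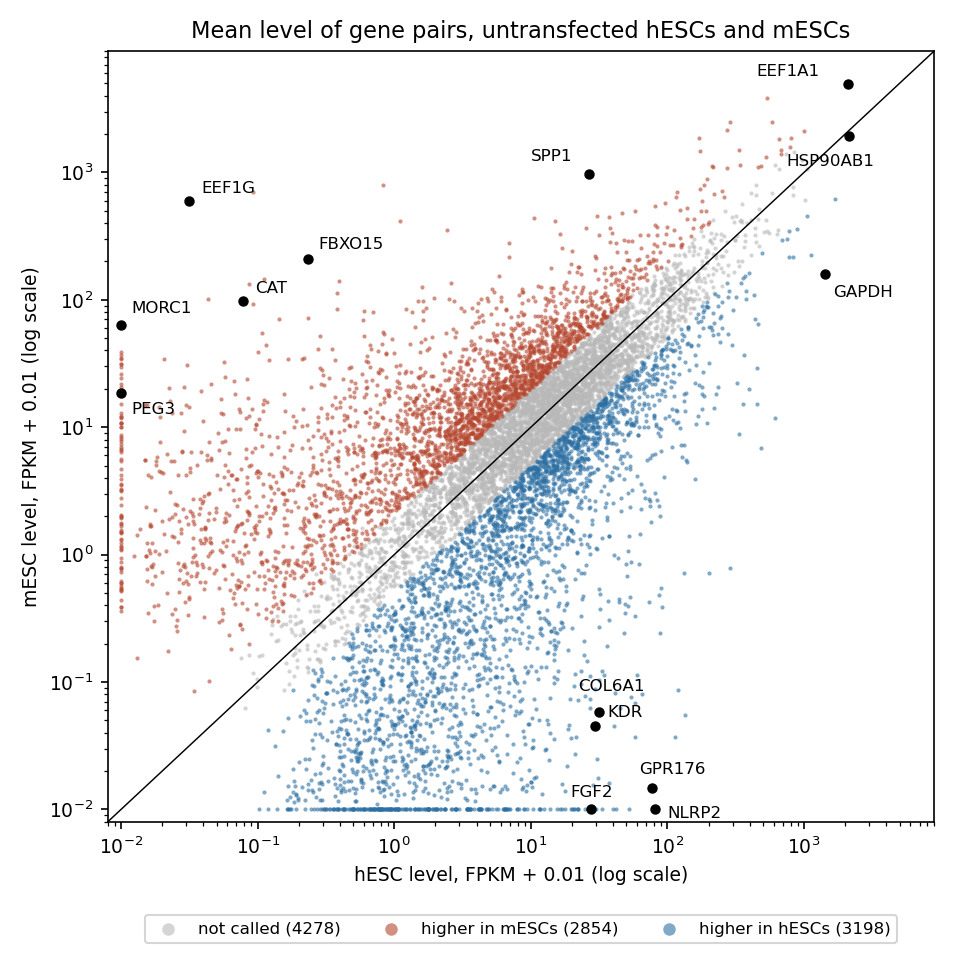
Mean level of each of the 10330 pairs in the hESC (x axis) and mESC (y axis) libraries, in FPKM plus 0.01 on log scales, with 2854 genes higher in mESCs in red, 3198 higher in hESCs in blue and the rest in grey. The line marks equal levels, and the points at the left and lower edges are genes with no count in a species.

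The 15 genes with the largest difference in the direction of mESCs included germline genes, a pair of imprinted genes and a cytokine. MORC1, a germline ATPase that takes part in silencing transposons (hg19 chromosome 3, 108677086 to 108836989; mm9 chromosome 16, 48431350 to 48631018), stood at 66.8, 56.3 and 65.5 FPKM in the mESC libraries, with no count in hESCs. It was at least 3819-fold higher in mESCs (adjusted p = 1.08e-10). PEG3, a paternally expressed imprinted gene whose zinc finger protein was not among the TF names used (hg19 chromosome 19, 57321445 to 57352096; mm9 chromosome 7, 6656603 to 6683132), stood at 18.5, 17.9 and 18.8 FPKM in mESCs, again with no count in hESCs (at least 2761-fold). MEG3, a maternally expressed long non-coding RNA, stood at 13.8, 6.92 and 9.32 FPKM in mESCs and had no count in hESCs (at least 2500-fold). The passages of each species lay far from those of the other for all 3 genes, and relative to its mean MEG3 varied most between mESC passages.

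HORMAD1, a protein of the meiotic chromosome axis, stood at 14.9, 17.7 and 23 FPKM in mESCs, and FMR1NB, a cancer-testis antigen, at 37.6, 31 and 41.5. Neither had a count in hESCs. RBMXL2, a testis-expressed RNA-binding protein, and GTSF1L, a relative of the piRNA factor GTSF1, were likewise counted in mESCs alone, at least 1138-fold and at least 882-fold higher. OSM, which encodes oncostatin M, a cytokine of the LIF family, stood at 11.3, 18.4 and 15.6 FPKM in mESCs and had no count in hESCs. Others of this kind were PLA2G1B, a secreted phospholipase, PPP1R14D, an inhibitor of protein phosphatase 1, and the LIM domain protein CRIP1, with mESC means of 38.7, 29.9 and 34 FPKM. The genes with the symbol CLDN25, at 17.8 FPKM in mESCs, had 754 exon bases in human and 2563 in mouse, and whether they are orthologs was not tested.

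The 15 genes with the largest difference in the direction of hESCs included growth factors, a collagen chain and membrane proteins. NLRP2, a NOD-like receptor family member known as a maternal-effect gene (hg19 chromosome 19, 55464498 to 55512510; mm9 chromosome 7, 5250156 to 5302637), stood at 76.3, 85.9 and 80.2 FPKM in the hESC libraries and had no count in mESCs. It was at least 4637-fold higher in hESCs (adjusted p = 5.39e-11). FGF2, the basic fibroblast growth factor that primed cells need, stood at 24.6, 35.3 and 23.4 FPKM in hESCs and had no count in mESCs (at least 842-fold). GPR176, an orphan G protein-coupled receptor, stood at 77.5, 77.1 and 76.2 FPKM in hESCs and at 0, 0 and 0.014 in mESCs. Its log2 fold change was -13.48 (adjusted p = 3.78e-12), with hESC passages close to each other. The fold change rests on 1 count in 1 mESC passage, so its size is imprecise. COL6A2, a collagen VI chain, was counted in hESCs alone as well, at 21.2, 21.9 and 22 FPKM.

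VRTN, which encodes vertnin, stood at 111, 122 and 109 FPKM in hESCs and 0.0188, 0.063 and 0 in mESCs. Its log2 fold change of -11.92 rests on mESC counts of 1, 4 and 0. ADD2, the membrane skeleton protein beta-adducin, differed by -12.32, with mESC counts of 0, 1 and 0. PTN, the growth factor pleiotrophin, stood at 21.8, 28 and 28.2 FPKM in hESCs, and the neuropeptide precursor NTS at 16.7, 22.6 and 22.1. Neither had a count in mESCs. The palmitoyltransferase ZDHHC22, the calcium sensor VSNL1, the hormone stanniocalcin STC1 and IDO1, which starts the breakdown of tryptophan, were counted in hESCs alone too, at least 513-fold, at least 659-fold, at least 883-fold and at least 363-fold higher.

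For 5 of the 30 genes with the largest differences, nearly all exon bases in the species with little or no signal also belonged to another annotated gene, and fragments that fall in more than 1 gene are by default not counted. Exon bases shared with another gene made up 99.2% of human EEF1G, 100% of human BOLA2, 100% of human ZCCHC3, 100% of mouse PDCD2 and 87.1% of mouse PUS3. EEF1G, a subunit of the translation elongation factor complex, stood at 0.0223, 0.042 and 0 FPKM in hESCs and 568, 634 and 580 in mESCs. The differences of these 5 genes were not read as differences in expression. Among the 10330 pairs, 62 had at least 80% of exon bases shared in a species, and 2283 at least 10%. Smaller shares were found for CRIP1 (26.4% in human), FGF2 (13% in human and 16.5% in mouse), ZDHHC22 (13% in human) and PEG3 (11.2% in human), and the other 21 of the 30 genes had under 10% in either species.

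The most abundant transcripts were those of translation, chaperones, the cytoskeleton and glycolysis. HSP90AB1, a cytosolic HSP90 chaperone, stood at 1933, 2288 and 2178 FPKM in hESCs and 1852, 2103 and 1787 in mESCs, and the 2 ranges overlapped. Its log2 fold change of -0.16 ± 0.10 had an adjusted p of 0.146. The nucleolar protein NPM1 (0.03 ± 0.11, adjusted p = 0.785) overlapped between species too, while the elongation factor EEF2 was higher in every mESC passage by less than 2-fold (0.38 ± 0.09, adjusted p = 0.00202). HSP90AA1, the stress-inducible HSP90, was higher in mESCs, at 1281, 1378 and 1332 FPKM against 515, 535 and 534, though 49.8% of its mouse exon sequence, read in windows of 75 bases (75-mers), recurs in the genome. The beta-actin gene ACTB was higher in hESCs, at 1442, 1760 and 1823 FPKM against 556, 729 and 582, a log2 fold change of -1.43 ± 0.12. HSPA8, a constitutive HSP70 chaperone, was also higher in hESCs (-1.20 ± 0.18), with 30.5% of its mouse 75-mers repeated.

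Other abundant genes had repeated exon sequence in mouse too. GAPDH, a glycolytic enzyme, stood at 1295, 1510 and 1429 FPKM in hESCs and 148, 178 and 153 in mESCs (-3.14 ± 0.10, adjusted p = 2.55e-10). Of its exon 75-mers, 0.869% in human and 46.6% in mouse occurred more than once in the genome. The repeated share in mouse was 59.1% for gamma-actin ACTG1 (-2.34 ± 0.13), 32.5% for elongation factor EEF1A1 (1.22 ± 0.09), 80.9% for prothymosin PTMA (1.14 ± 0.10) and 83.3% for the ribosomal fusion gene FAU (2.19 ± 0.08). The part of these repeats in the differences was not tested. The calls of EEF1A1, FAU and PTMA also turned on gene length, at 5944, 1846 and 3378 bases in human and 2493, 561 and 1192 in mouse. Without correction for length their log2 fold changes were 0.32, 0.82 and -0.02, and none was called. EEF1A1 had 175384, 217368 and 212990 counts in hESCs and 183641, 215511 and 217932 in mESCs. SPP1, which encodes the secreted phosphoprotein osteopontin, had no repeated 75-mer in either species. It stood at 1034, 873 and 1021 FPKM in mESCs and 22.1, 33.9 and 23.9 in hESCs, a log2 fold change of 5.19 ± 0.17 (adjusted p = 2.34e-10). Among the 8 genes ranked most abundant in mESCs, only SPP1 had a difference over 5-fold.

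Other genes stood at nearly the same level in both species. ADH5, which breaks down formaldehyde, stood at 99.4, 102 and 99 FPKM in hESCs and 99.6, 97.7 and 98.9 in mESCs. IMMT, the core of the mitochondrial contact site complex, stood at 55.8, 57.4 and 57.7 FPKM in hESCs and 53.5, 55.6 and 54.2 in mESCs. NMT1, an N-myristoyltransferase, stood at 41, 40.9 and 42.6 FPKM in hESCs and 39.9, 40.9 and 40.9 in mESCs. Their log2 fold changes were -0.02 ± 0.07, -0.07 ± 0.07 and -0.03 ± 0.07, with 95% intervals within 2-fold. The chromatin remodeller SMARCA5 (-0.28 ± 0.07), the importin KPNA4 (-0.39 ± 0.07), the MCM-binding protein MCMBP (-0.41 ± 0.07), the replication factor C subunit RFC1 (0.62 ± 0.07) and the Hippo pathway effector YAP1 (-0.72 ± 0.07) had intervals as narrow. These 5 differed by less than 2-fold, although their passages did not overlap and their adjusted p-values lay between 0.00198 and 1.06e-06.

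**Figure D2:**
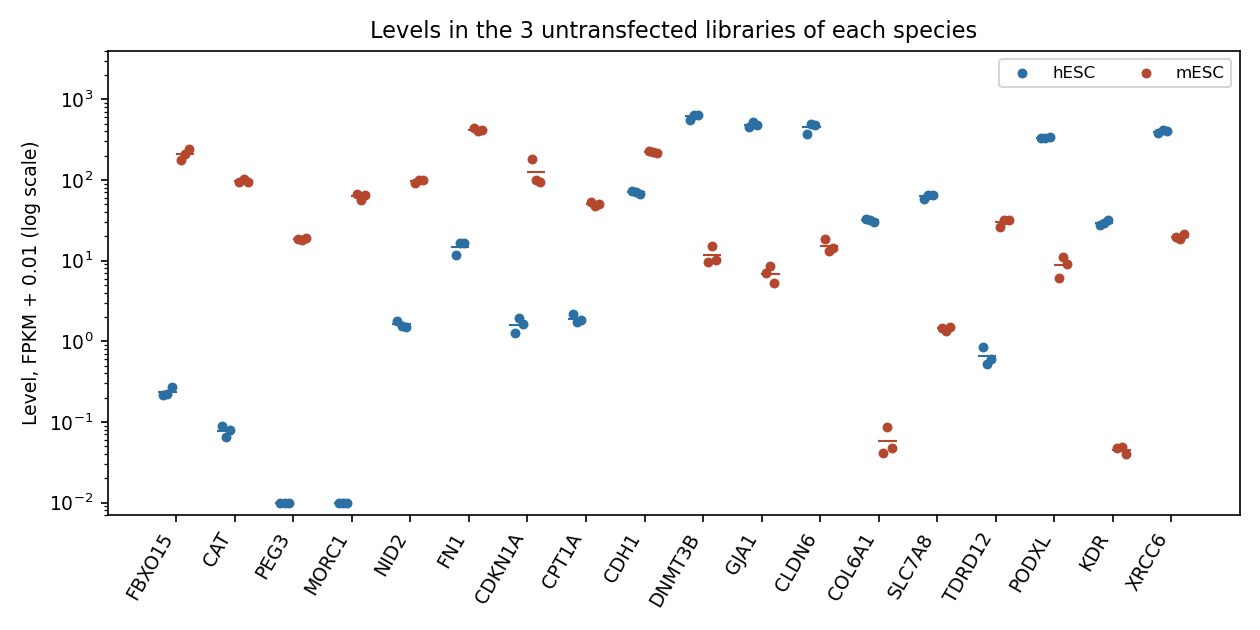
Level of 18 genes in each of the 3 hESC (blue) and 3 mESC (red) libraries, in FPKM plus 0.01 on a log scale, with a line at the mean of each group. The passages of the 2 species do not overlap for any of these genes, and points at 0.01 are libraries with no count.

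Genes that mark the naive or the primed state in cell culture mostly differed between hESCs and mESCs, which were kept in different media. Of 26 tested naive-state genes other than TFs, 19 were higher in mESCs and 5 in hESCs, with a median log2 fold change of 3.75. The ubiquitin ligase subunit FBXO15 stood at 0.203, 0.211 and 0.259 FPKM in hESCs and 179, 207 and 240 in mESCs. FGF4, the ligand that pushes naive cells toward differentiation, stood at 0, 0.256 and 0.047 FPKM in hESCs and 127, 143 and 165 in mESCs. With any mESC passage left out, 19 naive-state genes passed the filter and 12 were higher in mESCs, since the other 2 mESC passages cannot meet the minimum of 3 libraries for genes at or near 0 in hESCs. Of 29 tested primed-state genes, 22 were higher in hESCs and 4 in mESCs (median -4.50). PODXL, the sialomucin podocalyxin that carries the TRA-1-60 epitope, stood at 328, 327 and 343 FPKM in hESCs and 6.01, 11.2 and 9.14 in mESCs. SFRP2, a secreted WNT inhibitor, differed by -8.49 ± 0.20. Members that went the other way included AASS, a lysine-degrading enzyme listed with the naive genes but at 148, 134 and 122 FPKM in hESCs and 0.0356, 0 and 0.1 in mESCs, and the ephrin receptor EPHA4 and WNT modulator DACT2, listed with the primed genes but higher in mESCs (3.58 ± 0.14 and 4.36 ± 0.17). The lists drew on what is known of these states, so their direction is no independent evidence.

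**Figure D3:**
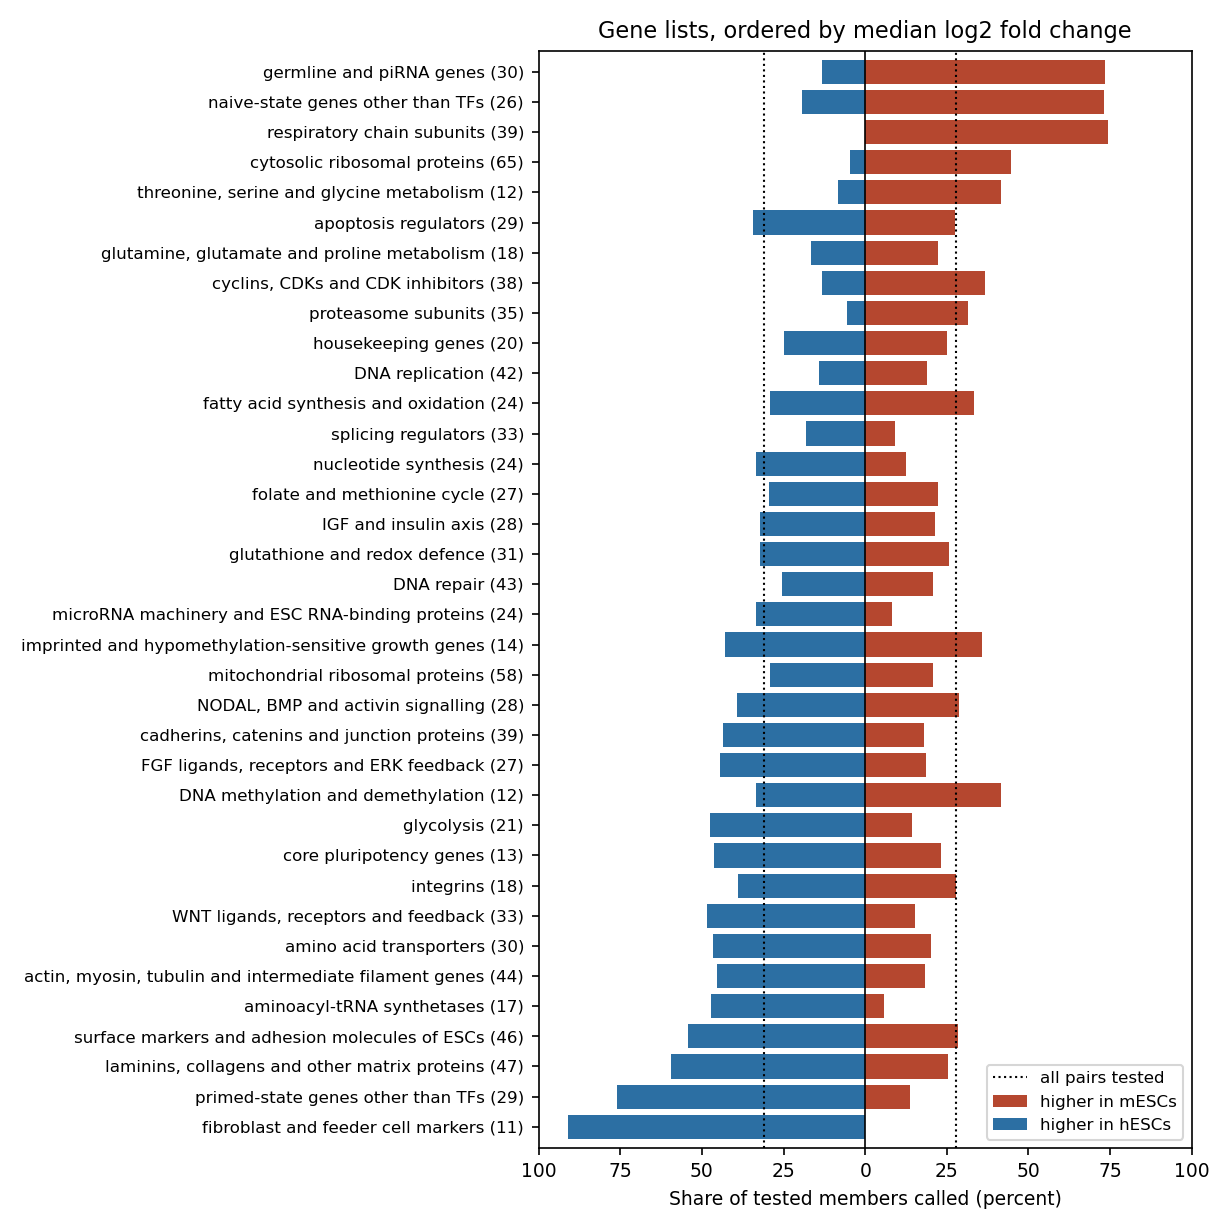
Share of the tested members of each gene list called higher in mESCs (red, to the right) or in hESCs (blue, to the left), in percent, with the number tested in brackets. Dotted lines mark 27.9% and 30.9%, the shares over all pairs tested, and lists with under 10 tested members are not drawn. The bar of germline genes stands for 22 of 30 members higher in mESCs, and that of primed-state genes for 22 of 29 higher in hESCs.

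Most tested germline genes were higher in mESCs. Genes of this list serve meiosis and the piRNA pathway, which protects the genome from transposons, and many are silenced by DNA methylation in somatic cells. Of 30 tested members, 22 were higher in mESCs, 4 were higher in hESCs and 3 lay within 2-fold, with a median log2 fold change of 4.26 (the same with bounds in place of fitted values), and 11 members did not pass the filter. TDRD12, a Tudor protein of piRNA biogenesis, stood at 0.851, 0.507 and 0.597 FPKM in hESCs and 26, 31.5 and 31.7 in mESCs (5.52 ± 0.17, adjusted p = 1.68e-10). FKBP6, a co-chaperone of the piRNA pathway, differed by 7.00 ± 0.35, the intercellular bridge protein TEX14 by 5.13 ± 0.20 and the meiotic cohesin subunit STAG3 by 3.92 ± 0.20. In mESCs these 4 stood between 10.8 and 29.7 FPKM. CCNB1IP1, a crossover factor, went the other way, at 51.2, 53 and 48.2 FPKM in hESCs and 0.45, 0.527 and 1.01 in mESCs. Members at or near 0 in hESCs passed the filter only through their mESC libraries, so their direction was fixed by the filter. With any mESC passage left out, 13 members passed it, 5 higher in mESCs and 4 in hESCs. In the opposite direction with CCNB1IP1 went HSPA2, the testis-enriched HSP70 (-2.72 ± 0.14), and the Tudor protein TDRKH (-4.38 ± 0.24).

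Genes of amino acid and 1-carbon metabolism were called in both directions. Of 12 tested genes of threonine, serine and glycine metabolism, 5 were higher in mESCs and 1 in hESCs (median 0.84). This was 41.7% and 8.33%, beside 27.9% and 30.9% over all pairs. AMT, the aminomethyltransferase of the glycine cleavage system, stood at 14.1, 13.3 and 12.7 FPKM in hESCs and 89, 99 and 101 in mESCs (2.85 ± 0.09). Its partner GCSH differed by 2.02 ± 0.12, with 51.9% of its human 75-mers repeated. SHMT1, which moves 1-carbon units from serine to folate, differed by 2.15 ± 0.09, and GCAT, which follows threonine dehydrogenase, by 1.46 ± 0.09. Threonine dehydrogenase itself, TDH, which mouse ESCs are known to need, stood at 3.09, 2.56 and 2.38 FPKM in mESCs, but 59.3% of its mouse exon bases belonged to another gene too. The annotation gives the human gene as a pseudogene.

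The folate and methionine cycle had members on both sides, 6 higher in mESCs and 8 in hESCs of 27 tested (median -0.08). These shares, 22.2% and 29.6%, were no higher than the 27.9% and 30.9% over all pairs. The 10-formyltetrahydrofolate dehydrogenase ALDH1L1 stood at 0.116, 0.164 and 0.155 FPKM in hESCs and 20.4, 15.9 and 18.7 in mESCs (6.97 ± 0.16). CTH, which releases cysteine from cystathionine, was higher in mESCs (3.42 ± 0.09), while CBS, the enzyme of the step before it, was higher in hESCs, at 133, 128 and 131 FPKM against 19.4, 17.7 and 17.4 (-2.85 ± 0.08). ASNS, which makes asparagine, stood at 43.6, 51.7 and 44.7 FPKM in hESCs and 471, 479 and 491 in mESCs (3.36 ± 0.09, adjusted p = 7.46e-11). The aspartate aminotransferase GOT1 (1.85 ± 0.09) was also higher in mESCs, and the proline-forming PYCR1 (-1.36 ± 0.09) and glutamine synthetase GLUL (-1.08 ± 0.08) in hESCs. PYCR1 was not called without correction for length. Over 18 tested genes of glutamine, glutamate and proline metabolism, 4 (22.2%) were higher in mESCs and 3 (16.7%) in hESCs, and 6 lay within 2-fold. The shares called were both under those over all pairs.

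Amino acid transporters were more often higher in hESCs, 14 of 30 tested against 6 in mESCs (median -0.71). These shares, 46.7% and 20.0%, stand beside 30.9% and 27.9% over all pairs. SLC7A8, a transporter of large neutral amino acids, stood at 58.3, 64.4 and 64.8 FPKM in hESCs and 1.45, 1.35 and 1.5 in mESCs (-5.44 ± 0.10). SLC38A5, a glutamine transporter, stood at 20.5, 22.4 and 21 FPKM in hESCs and 0.0303, 0.0507 and 0 in mESCs, and SLC7A11, the cystine importer, differed by -4.54 ± 0.17. The 6 higher in mESCs included SLC38A4, an imprinted neutral amino acid transporter in mouse (2.94 ± 0.23), and SLC1A4 (4.61 ± 0.19), a carrier of alanine, serine and cysteine. SLC38A1, another glutamine transporter, stood at 78.3 ± 3.35 in hESCs and 28.4 ± 1.88 in mESCs (FPKM, SD, n = 3).

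Respiratory chain genes were mostly called higher in mESCs, a count that rested on gene length. Of 39 tested nuclear genes of respiratory chain subunits, 29 were higher in mESCs and 0 in hESCs (median 1.47), and without correction for length 10 and 1. Of 21 glycolysis genes 10 (47.6%) were higher in hESCs and 3 (14.3%) in mESCs (median -0.61). Over the 13 of them with under 10% of exons shared or repeated, 6 were higher in hESCs and 1 in mESCs, and the median was 0.00. Among fatty acid genes CPT1A, which admits fatty acids to the mitochondrion, stood at 2.15, 1.7 and 1.83 FPKM in hESCs and 53.6, 47.7 and 50.8 in mESCs (4.74 ± 0.11, adjusted p = 2.89e-11). The acyl-CoA dehydrogenases of medium, short and long chains, ACADM, ACADS and ACADL, were higher in mESCs by 1.95 ± 0.10, 3.94 ± 0.11 and 7.76 ± 0.28. The acyl-CoA dehydrogenase of very long chains, also in the list, was called higher in hESCs. Fatty acid synthase FASN was higher in hESCs (-1.73 ± 0.17), and so were the trifunctional protein subunits HADHA and HADHB (-1.63 ± 0.07 and -2.01 ± 0.09), which also act in oxidation. HADHA and HADHB were not called without correction for length. Of 24 members tested, 8 (33.3%) were higher in mESCs and 7 (29.2%) in hESCs, near the 27.9% and 30.9% over all pairs.

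Catalase, which breaks down hydrogen peroxide, was nearly absent from the hESC libraries. CAT (hg19 chromosome 11, 34460472 to 34493609; mm9 chromosome 2, 103294006 to 103325317) stood at 0.0792, 0.0559 and 0.0686 FPKM in hESCs and 94.9, 103 and 95.3 in mESCs (10.44 ± 0.14, adjusted p = 2.87e-12). No exon base of it was shared or repeated in either species. Superoxide dismutase SOD1 (2.58 ± 0.08) and glutathione reductase GSR (1.26 ± 0.08) were higher in mESCs too. The peroxiredoxins PRDX6, at 191, 259 and 250 FPKM in hESCs and 15.2, 24.5 and 22.3 in mESCs, and PRDX5 (-3.96 ± 0.08) were higher in hESCs. Over the glutathione and redox defence list, 8 genes were higher in mESCs and 10 in hESCs of 31 tested (median -0.15), shares near those of all pairs.

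Cell cycle inhibitors were among the cell cycle genes higher in mESCs. Of 38 tested cyclins, cyclin-dependent kinases (CDKs), CDK inhibitors and regulators, 14 were higher in mESCs and 5 in hESCs, and 14 lay within 2-fold. The first 2 shares were 36.8% and 13.2%, beside 27.9% and 30.9% over all pairs. The median was 0.27, or -0.10 with the longest coding transcript as the length. With at least 10 counts in all libraries 8 of 35 were higher in mESCs. CDKN1A, the p21 inhibitor, stood at 1.24, 1.92 and 1.61 FPKM in hESCs and 180, 100 and 93.6 in mESCs (6.28 ± 0.29), and the first mESC passage stood above the other 2. CDKN2A, which encodes p16 and ARF, differed by 9.35 ± 0.25, from 0.0465 to 32.4 FPKM. The D-type cyclins went opposite ways: CCND3 was at 5.2, 6.32 and 6.73 FPKM in hESCs and 104, 115 and 99.3 in mESCs (4.12 ± 0.11), and CCND2 at 15.9, 12.5 and 15.6 FPKM in hESCs and 0.25, 0.309 and 0.211 in mESCs (-5.83 ± 0.17). The kinase CDK2 was higher in mESCs (2.35 ± 0.08).

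Most tested genes of DNA replication lay within 2-fold. This held for 25 of 42 members, beside 31.0% over all pairs, while 8 were higher in mESCs and 6 in hESCs (median 0.11). CDC6, which loads the replicative helicase, stood at 78.2, 82.9 and 77.4 FPKM in hESCs and 14.3, 16.7 and 14 in mESCs (-2.41 ± 0.09, adjusted p = 6.22e-10). The origin recognition subunit ORC1 (-1.52 ± 0.10) and the clamp loader subunit RFC3 (-1.80 ± 0.09) were higher in hESCs too. The licensing factor CDT1 (1.12 ± 0.10) and the polymerase alpha subunit POLA2 (1.47 ± 0.08) were higher in mESCs. All of these calls depended on gene length. Those of CDT1 and ORC1 were lost both without correction for length and with the longest coding transcript as the length. POLA2 lost its call without the correction alone, and CDC6 and RFC3 with coding transcripts alone. The flap endonuclease FEN1 had 84.2% of its mouse exon bases shared with another gene, so its fold change is not given.

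The 3 genes of the DNA-dependent protein kinase, which joins broken DNA ends without a template, were higher in hESCs together. XRCC6, which encodes Ku70, stood at 380, 415 and 399 FPKM in hESCs and 19.4, 18.7 and 21.6 in mESCs (-4.32 ± 0.09, adjusted p = 1.94e-11). PRKDC, the catalytic subunit, stood at 101, 80.6 and 76.2 FPKM in hESCs and 9.29, 9.56 and 10.9 in mESCs (-3.12 ± 0.12), and XRCC5, which encodes Ku80, differed by -1.40 ± 0.08. The hESC passages stood above the mESC passages for all 3. The uracil glycosylase UNG was higher in hESCs (-1.62 ± 0.09). In mESCs the mismatch repair gene MSH6 (1.85 ± 0.07), the single-strand break scaffold XRCC1 (2.33 ± 0.10, with 24% of human exon bases shared), BRCA1 (1.19 ± 0.08) and PARP2 (1.34 ± 0.08) were higher. MSH6 and PARP2 lost their calls both without correction for length and with the longest coding transcript as the length. Over 43 tested repair genes, 9 (20.9%) were higher in mESCs and 11 (25.6%) in hESCs, both under the 27.9% and 30.9% over all pairs. The median was -0.26, or 0.07 with the longest coding transcript as the length.

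Apoptosis regulators were called in both directions, 8 of 29 higher in mESCs and 10 in hESCs. These shares, 27.6% and 34.5%, lay near the 27.9% and 30.9% over all pairs. BAX, which permeabilizes the mitochondrial membrane, stood at 39.1, 43.4 and 42.1 FPKM in hESCs and 141, 147 and 127 in mESCs (1.73 ± 0.08). APAF1, the scaffold of the apoptosome, and the BH3-only gene BBC3 were higher in mESCs by 2.08 ± 0.15 and 1.96 ± 0.18. The BH3-only genes PMAIP1 and BCL2L11, the survival gene BCL2L1 and caspase CASP6 were higher in hESCs (-1.42 ± 0.26, -2.30 ± 0.15, -1.76 ± 0.10 and -2.11 ± 0.14). Without correction for length PMAIP1 and BCL2L1 lost their calls, and BCL2L1 also with the longest coding transcript as the length.

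Genes of DNA methylation and demethylation were called both ways, 5 higher in mESCs and 4 in hESCs of 12 tested. These shares were 41.7% and 33.3%, beside 27.9% and 30.9% over all pairs. The de novo methyltransferase DNMT3B stood at 558, 642 and 642 FPKM in hESCs and 9.72, 15 and 10.3 in mESCs (-5.71 ± 0.17), and DNMT3A differed by -4.74 ± 0.16. The demethylating dioxygenase TET2 was higher in mESCs (5.24 ± 0.23) and TET3 in hESCs (-3.32 ± 0.14).

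Few RNA-binding proteins and splicing regulators were higher in mESCs in the untransfected cells. Of 24 tested genes of microRNA machinery and ESC RNA-binding proteins, 2 were higher in mESCs and 8 in hESCs (median -0.32, or 0.06 in the transfected cells, where 5 were higher in mESCs). In the untransfected cells the shares were 8.33% and 33.3%, beside 27.9% and 30.9% over all pairs. L1TD1, an RNA-binding protein derived from a LINE-1 element, stood at 415, 453 and 452 FPKM in hESCs and 64.7, 89.9 and 56.9 in mESCs (-2.64 ± 0.15). The RNA-editing enzyme ADAR stood at 97.9, 96.4 and 93.2 FPKM in hESCs and 11.1, 11.7 and 12.3 in mESCs (-3.03 ± 0.08), and the let-7 target TRIM71 differed by -2.46 ± 0.12. DIS3L2, the exonuclease that degrades uridylated pre-let-7, was higher in mESCs (2.41 ± 0.10). This call was lost both without correction for length and with the longest coding transcript as the length. Of 33 splicing regulators, 20 lay within 2-fold, 3 were higher in mESCs and 6 in hESCs, and 0 in hESCs among the 20 with under 10% of exons shared or repeated. SRSF10 was higher in mESCs (4.67 ± 0.11, with 22.7% of mouse 75-mers repeated), and SRSF4 (-2.54 ± 0.09) and HNRNPM (-1.17 ± 0.10) in hESCs.

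For respiratory chain, ribosomal protein and proteasome genes many calls depended on the length given to each gene. The deposited lengths count every annotated exon, and the median human length was 1.23 times the mouse length over the 10330 pairs, against 2.16 for cytosolic ribosomal proteins and 1.99 for respiratory chain subunits. COX4I1, a subunit of cytochrome c oxidase, had a length of 4792 bases in human and 679 in mouse. Its counts were 4192, 4427 and 4726 in hESCs and 5023, 5841 and 6059 in mESCs, and its levels 58, 57.6 and 56.6 FPKM in hESCs and 502, 489 and 487 in mESCs (adjusted p = 3.08e-11). RPL4, a protein of the large ribosomal subunit, had lengths of 5635 and 1422 bases, counts of 49089, 54061 and 55425 in hESCs and 49656, 61814 and 69279 in mESCs, and a log2 fold change of 2.11 ± 0.08.

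Of the named genes, 12 lost their call both without correction for length and with the longest coding transcript as the length. These were BCL2L1, CDT1, COX4I1, DIS3L2, FAU, IGFBP2, MSH6, ORC1, PARP2, PSMA7, PSMD8 and PTMA. A further 8, COX6B1, EEF1A1, HADHA, HADHB, PMAIP1, POLA2, PYCR1 and RPL4, lost it without the correction alone, and 4, CD81, CDC6, CNN3 and RFC3, with coding transcripts alone. In all but PTMA the log2 fold change kept its sign. Among the lists, the count higher in mESCs without the correction was 4 for DNA repair, 3 for DNA methylation and 7 for glutamine, glutamate and proline metabolism, and the count higher in hESCs was 5 for microRNA machinery and ESC RNA-binding proteins. With coding transcripts 3 cytoskeletal and 5 replication genes were higher in mESCs, and 7 repair genes in hESCs.

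Of 65 tested cytosolic ribosomal protein genes, 29 were higher in mESCs and 3 in hESCs (median 0.91). With no correction for length 5 were higher in mESCs and 4 in hESCs (median 0.21). With the longest coding transcript as the length, 18 were higher in mESCs and 7 in hESCs (median 0.20). For the 39 respiratory chain genes, the 29 higher in mESCs became 10 without the correction and 15 with coding transcripts, and the medians 0.63 and 0.84 in place of 1.47. Among the 8 of them with lengths within 1.5-fold of each other, 3 were higher in mESCs and 0 in hESCs. COX6B1 (1.47 ± 0.08), a subunit of complex IV, had no shared or repeated exon sequence. Many ribosomal protein genes have processed copies, and 18 of the 65 had under 10% of exons shared or repeated in both species, 8 of them higher in mESCs and 1 in hESCs. In contrast, the median of the germline genes stayed between 4.16 and 4.45, and that of the matrix genes between -2.53 and -2.18, under the same treatments of length.

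**Figure D4:**
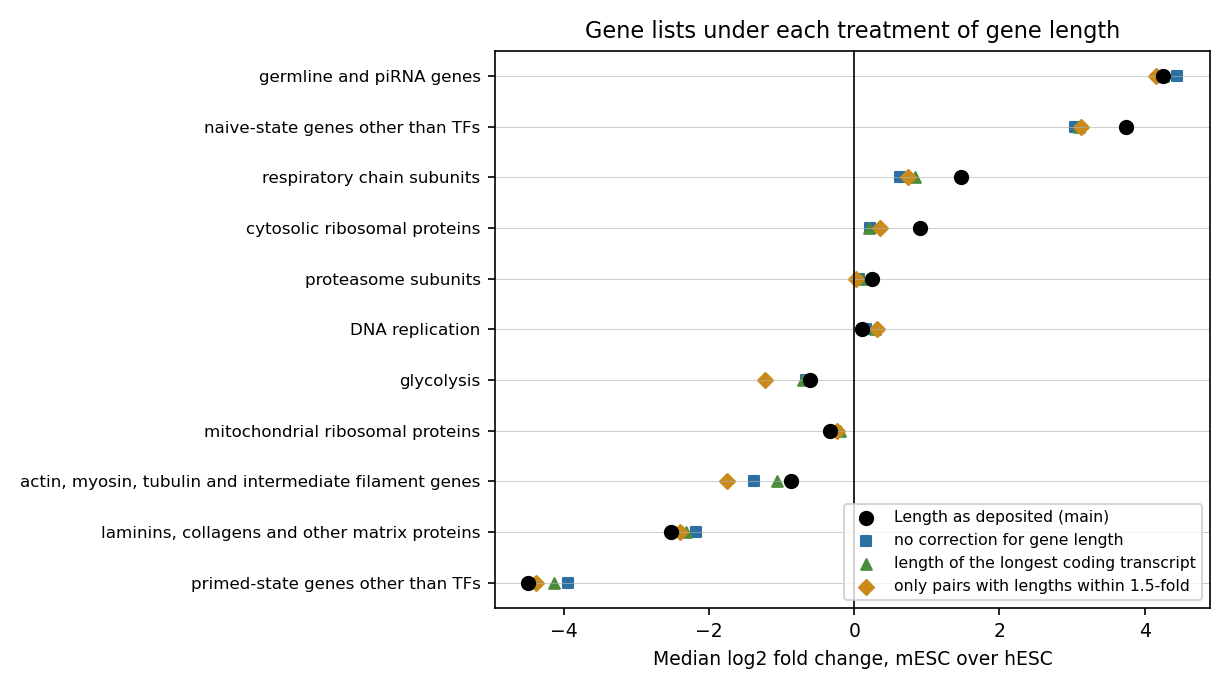
Median log2 fold change (mESC over hESC, x axis) of 11 gene lists with the deposited length (black circle), no correction for length (blue square), the longest coding transcript (green triangle) and only pairs with lengths within 1.5-fold (orange diamond). The medians of respiratory chain subunits and cytosolic ribosomal proteins fell from 1.47 and 0.91 to at most 0.84 and 0.35. None of the 11 lists drawn changed sign. The medians of cell cycle and DNA repair genes, not drawn, did so with the longest coding transcript.

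Of 58 mitochondrial ribosomal protein genes, 12 were higher in mESCs and 17 in hESCs (median -0.33), or 20.7% and 29.3%, both under the 27.9% and 30.9% over all pairs. MRPL3 stood at 109, 121 and 116 FPKM in hESCs and 13.7, 13.6 and 13.6 in mESCs (-3.08 ± 0.08). Of 17 paired tRNA synthetases, mostly mitochondrial, 8 were higher in hESCs and 1 in mESCs, and without the length correction 3 and 1. Most cytosolic synthetases have other symbols in the human and mouse annotation and were not paired. Proteasome subunits were mostly alike, 21 of 35 within 2-fold, with PSMD8 (1.18 ± 0.07) among the 11 higher in mESCs and PSMA7 (-1.31 ± 0.08) among the 2 higher in hESCs. Without correction for length 4 were higher in mESCs and 0 in hESCs, neither PSMD8 nor PSMA7 among them.

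Matrix genes were more often higher in hESCs. Of 47 tested members, 12 were higher in mESCs and 28 in hESCs (median -2.53). These shares were 25.5% and 59.6%, beside 27.9% and 30.9% over all pairs. FN1, which encodes fibronectin, stood at 11.9, 16.6 and 16.3 FPKM in hESCs and 440, 400 and 414 in mESCs (4.80 ± 0.14, adjusted p = 1.17e-10). NID2 and NID1, the nidogens that link laminin to collagen IV, differed by 5.92 ± 0.10 and 3.34 ± 0.09, and NID2 stood at 93, 98.7 and 101 FPKM in mESCs against 1.79, 1.55 and 1.49. The laminin chains LAMC1 (1.46 ± 0.07) and LAMA5 (1.80 ± 0.12) and the matricellular protein SPARC (1.91 ± 0.08) were higher in mESCs too.

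Several collagen chains went the other way. COL6A1, which pairs with COL6A2 in collagen VI, stood at 32.6, 32 and 30.4 FPKM in hESCs and 0.0309, 0.0776 and 0.0373 in mESCs (-9.28 ± 0.17). The collagen IV chains of basement membranes, COL4A1 and COL4A2, had hESC means of 26.8 and 22 FPKM and differed by -4.53 ± 0.26 and -4.86 ± 0.14. The proteoglycan versican, encoded by VCAN, was also higher in hESCs (-4.41 ± 0.11). Leaving out any hESC passage left 35 members that passed the filter, 11 higher in mESCs and 16 in hESCs, again through the filter. Of 18 integrins, 5 were higher in mESCs, among them ITGB4 (2.86 ± 0.32), and 7 in hESCs, among them ITGB5 (-1.72 ± 0.18). These shares were 27.8% and 38.9%, beside 27.9% and 30.9% over all pairs.

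Members of the same junction family differed in opposite directions. Among claudins, CLDN4 was higher in mESCs (4.55 ± 0.13) and CLDN6, at 374, 498 and 484 FPKM against 18.4, 13.2 and 14.4, in hESCs (-4.89 ± 0.15). E-cadherin, CDH1, was higher in mESCs, at 229, 225 and 213 FPKM against 73.1, 70.8 and 66.6 (1.66 ± 0.07), and P-cadherin, CDH3, in hESCs (-4.08 ± 0.15). The connexin GJA1 stood at 457, 521 and 480 FPKM in hESCs and 6.93, 8.47 and 5.33 in mESCs (-6.14 ± 0.16). The adhesion molecule JAM2 (5.67 ± 0.13) was higher in mESCs, and the desmosomal DSG2 (-2.67 ± 0.08) and EPCAM (-1.53 ± 0.21) in hESCs. Over 39 tested junction genes, 7 were higher in mESCs and 17 in hESCs, and 11 of 33 in hESCs without the first hESC passage. The shares of the 39 were 17.9% and 43.6%, beside 27.9% and 30.9% over all pairs.

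Cytoskeletal genes were more often higher in hESCs, 20 of 44 against 8 in mESCs (median -0.87). This was 45.5% and 18.2%, beside 30.9% and 27.9% over all pairs. The actin cross-linker FLNA stood at 226, 249 and 253 FPKM in hESCs and 39.1, 55.3 and 44.8 in mESCs (-2.39 ± 0.12), and the actin-binding calponin CNN2 at 144, 204 and 204 FPKM in hESCs and 16, 17.1 and 19.2 in mESCs (-3.40 ± 0.14). The epithelial keratins KRT18 and KRT8 differed by -3.44 ± 0.12 and -2.98 ± 0.16. Another calponin, CNN3, was higher in mESCs, at 232, 265 and 314 FPKM against 106, 114 and 109. With the longest coding transcript as the length it was not called. The microtubule regulator STMN2 was also higher in mESCs, at 88.6, 90.4 and 73.7 FPKM against 0.337, 0.29 and 0.486 (7.80 ± 0.17).

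Surface molecules of ESCs were called in both directions. The tetraspanins CD9 and CD81 were higher in mESCs, CD9 at 308, 273 and 286 FPKM against 58.4, 51.5 and 54.1 (2.40 ± 0.08) and CD81 by 2.36 ± 0.16. CD81 was not called with the longest coding transcript as the length. The stem cell factor receptor KIT (2.64 ± 0.10), the restriction factor BST2 (2.35 ± 0.18) and the proteoglycan SDC4 (2.02 ± 0.18) were higher in mESCs too. In hESCs THY1, the CD90 antigen, stood at 88.2, 85.7 and 95.4 FPKM against 0.196, 0.589 and 0.818 (-7.33 ± 0.20), and the ephrin receptor EPHA1 and glypican GPC4 differed by -7.55 ± 0.22 and -2.23 ± 0.15. Of 46 tested, 13 were higher in mESCs and 25 in hESCs, or 28.3% and 54.3%, beside 27.9% and 30.9% over all pairs.

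Signalling genes were called on both sides. DUSP6, a phosphatase that ERK induces, was higher in hESCs, at 41.8, 20.3 and 46.2 FPKM against 1.63, 1.93 and 2.36 (-4.18 ± 0.30), and so was SPRY4, at 37.9, 28.5 and 54.9 against 0.0444, 0.0124 and 0.0476. Of the 9 DUSP, SPRY and SPRED feedback genes listed, 5 were higher in hESCs, 1 was higher in mESCs (DUSP1) and 3 were not called. In mESCs, where MEK is inhibited in culture, FGF4 was higher. Of 27 FGF pathway genes 5 (18.5%) were higher in mESCs and 12 (44.4%) in hESCs (median -0.48). With at least 10 counts in all libraries 3 and 7 of 21 were, and the median turned to 0.43. Of 33 WNT genes, 5 (15.2%) were higher in mESCs and 16 (48.5%) in hESCs, among them the receptor FZD7 (-4.46 ± 0.12). Of 28 NODAL, BMP and activin genes 8 (28.6%) were higher in mESCs and 11 (39.3%) in hESCs. With any hESC passage left out, 5 to 6 of 23 NODAL, BMP and activin genes were higher in hESCs. Over all pairs the shares were 27.9% and 30.9%. In the IGF axis IGFBP4 was higher in hESCs (-5.94 ± 0.26) and IGFBP2 in mESCs (adjusted p = 8.89e-05). IGFBP2 lost its call both without correction for length and with the longest coding transcript as the length. Imprinted genes were called both ways, 5 higher in mESCs and 6 in hESCs of 14, with MEST (-4.82 ± 0.12) and PEG10 (-4.62 ± 0.21) in hESCs. These shares were 35.7% and 42.9%, beside 27.9% and 30.9% over all pairs.

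Markers of other cell types were measured in the same libraries. Of 17 paired fibroblast and feeder cell markers, 3 had no count in hESCs and 7 none in mESCs, and their summed level was 141 to 149 FPKM in hESCs and 6.11 to 8.98 in mESCs. THY1, which ESCs also carry, made up most of the hESC sum. COL1A1 (17.4, 13.2 and 11.3 FPKM in hESCs), COL1A2 (9.01, 8.09 and 7.81), MMP2 (9.02, 14.8 and 14.6) and S100A4 (13.1, 9.31 and 8.84) were called higher in hESCs, and 10 of 11 tested members were (6 of 7 with any hESC passage left out). The part of such cells in the matrix and cytoskeletal differences was not tested, and in bulk libraries fewer cells of a type and less RNA per cell cannot be told apart.

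Summed levels of the other marker lists were 3.3 to 3.68 FPKM in hESCs and 3.88 to 6.34 in mESCs for trophoblast, 3.34 to 4.31 and 4.19 to 4.56 for endoderm, and 102 to 114 and 132 to 162 for neural markers. The neural sum came mostly from NES in hESCs (102, 85.2 and 82.3 FPKM) and STMN2 in mESCs. Mesoderm and blood markers summed to 35.3 to 42.9 FPKM in hESCs and 4.86 to 5.85 in mESCs, through KDR, a receptor of vascular endothelial growth factor, at 27.7, 29.4 and 31.6 FPKM in hESCs and 0.0373, 0.039 and 0.03 in mESCs (-9.67 ± 0.15).

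Libraries of the same lines transfected with the reporter plasmids gave the comparison again, with the human libraries summed per passage to 3 against 3. Of 5933 genes called in the untransfected cells and tested in both, 5310 were called in the transfected cells too, and 12 had the opposite sign. These cells share line and medium with the untransfected ones and are no independent test of species.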

How the data were processed

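RNA-seq libraries were poly(A)-selected and not stranded, with 75 bp paired-end reads. The authors trimmed reads with cutadapt, aligned them with HISAT2 (versions not given in the sources used here) and counted fragments over exons with featureCounts 2.0.0, and deposited raw counts per gene with gene lengths. Per the file headers, strand was not used, fragments in overlapping genes were not counted, and the annotations were hg19 and mm9, although the methods name mm10; coordinates are as the files give them. Total counts per library ranged from 15107041 to 22018956, which limits the precision of genes with few counts.

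Here, genes were paired by symbol, which is not a test of orthology; 87.4% of human and 97.9% of mouse genes had a symbol. TFs were names in the study's TF tables and symbols of TF families. Pairs with at least 1 CPM in 3 libraries were fitted in edgeR 4.0.16 (R 4.3.3) with TMM on length-scaled counts and gene length as an offset, and tested with the quasi-likelihood F-test. Pairs called had an adjusted p (Benjamini-Hochberg) under 0.01 and a log2 fold change of 1 or more in size. A fold against a group with no count was bounded with 3 counts over the group. Genes named were the 15 with the largest change in each direction at 10 FPKM or more with groups that did not overlap, the 8 most abundant per species, the 8 with the narrowest interval within 2-fold, and from each gene list the called members of highest level, multigene families left out of the first 3; a few genes that this rule names are not reported here. Members and lists were chosen with earlier results of these data known. Exon bases shared with another gene and 75-mers repeated in the genome were computed from GRCh37 and NCBIM37, and 15362 genes of each species lay within the reference chromosomes. Alternatives used limma 3.58.1 and DESeq2 1.42.0, other scalings, filters, lengths and samples. The fit was tested on simulated data with 1 dispersion for all genes, few changed genes and the deposited lengths taken as true. Of 50 genes changed per fold size, 21 were called at 2-fold and 50 at 3-, 5- and 10-fold, and 0 of 10778 unchanged genes. The real comparison had far more changed genes and uncertain lengths, so these rates need not hold for it. Replicates of a group correlated at 0.992 to 0.997 and differed beyond counting noise, so none was counted as a duplicate.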

Additional observations from a re-analysis of the deposited data

How the results depend on the processing

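The main comparison gave 2854 genes higher in mESCs and 3198 higher in hESCs. Both counts changed by less than 1.5 times with median-of-ratios, upper-quartile or housekeeping scaling, without the low-count filter or with at least 10 counts in all libraries, with limma-voom, the DESeq2 Wald test or a test against a 2-fold change, without length correction, with all 12 libraries and with the 6 transfected libraries. The same held for pairs by older symbols, longest coding transcripts and genes with under 10% of exons shared or repeated, alternatives chosen after seeing the data. Restricting to lengths within 1.5-fold gave 1642 and 1896 genes, as fewer pairs were tested. An adjusted p under 0.05 with any fold change gave 4397 higher in mESCs. Leaving out 1 hESC library gave 2550 to 2595 higher in mESCs and 2318 to 2346 in hESCs. Leaving out 1 mESC library gave 2450 to 2500 and 3035 to 3051. Fewer pairs passed the filter in each case. With at least 10 counts in all libraries the counts were 2164 and 2154. Which direction held more calls thus depended on the filter. The median shift of a pair's log2 fold change was -0.12 with upper-quartile scaling and 0.24 with lengths within 1.5-fold. It was -0.14 to -0.15 without an hESC library and 0.09 to 0.11 without an mESC library. Without length correction 177 of 6052 calls had the opposite sign, and with longest coding transcripts 196 of 6004. Of the named results, 19 were weaker without length correction and 15 with longest coding transcripts, against 10 in the transfected libraries and at most 7 under any other setting with a test, and PTMA turned to -0.02 and -0.64. The glycolysis median was 0.00 over the 13 members with under 10% of exons shared or repeated. A replicate block on passage number gave 2829 and 3182. Deviations of same-numbered passages correlated at 0.0112, 0.0681 and -0.0784, so the numbers do not pair the samples. One line and medium per species and symbol-based pairing limit all comparisons.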
